A study of Mus musculus with 2 samples.

Results

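Among the fluorescently sorted Isl1-lineage cells of the embryonic mouse upper body, a minority were neurons in which few sensory-ganglion genes were detected. These other Isl1-lineage neurons were defined by the genes detected in each cell. A cell entered if it had 2001 to 8999 detected genes and under 10% mitochondrial UMIs (unique molecular identifiers, 1 per captured RNA molecule), at least 1 UMI in 3 or more of the 5 neuronal genes Tubb3, Elavl3, Elavl4, Stmn3 and Ina, a UMI in fewer than 3 of the 7 sensory genes Neurod1, Ppp1r17, Nhlh1, Scn9a, Thsd7b, Kcnmb2 and Pex5l, and a UMI in at least 1 of Dcc, Myt1l, Nrxn3 and Igfbpl1. The rule selected 372 of 6272 filtered cells. The 16 genes of the rule chose the cells, so their levels are descriptions and carry no test.

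Isl1 encodes a LIM homeodomain transcription factor that is needed in many developing neurons, among them motor neurons, sensory and sympathetic ganglion neurons, striatal projection neurons and arcuate neurons of the hypothalamus. A Cre recombinase driven by Isl1 labels every descendant of a cell that once expressed the gene, so a labelled neuron may no longer transcribe Isl1. Neurons are commonly sorted by their transmitter (glutamate, GABA or glycine, catecholamines, acetylcholine) and by transcription factors that mark their position, with the Dlx genes in the forebrain, Nkx2-1 in the ventral forebrain and hypothalamus, Gata, Tal and Lhx factors in midbrain, hindbrain and spinal cord, and the Hox genes from hindbrain to tail.

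The study compared embryos with and without an activating mutation of Pik3ca, the catalytic subunit of phosphoinositide 3-kinase, and measured hypoxia-related gene programmes. Control embryos were Isl1-Cre;R26R-eYFP and mutant embryos Isl1-Cre;R26R-eYFP;Pik3caH1047R, so both carried the Cre, driven from Isl1, and the yellow fluorescent reporter, and only the mutant carried the Cre-dependent H1047R allele. At E13.5, 3 eYFP-positive embryos of a genotype on a mixed C57BL/6J and ICR background were pooled, the body above the liver was dissected (the tissue is labelled pharyngeal arch), and the sorted eYFP-positive cells gave 1 droplet 5′ library per genotype. With 1 library of each genotype, no comparison of the genotypes has a test, and every interval given is a 95% interval of counting error alone.

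The control library held 4505 deposited cells with 66935720 UMIs and the mutant library 5357 cells with 73915525 UMIs. After filtering, 93 of 2783 control cells were other Isl1-lineage neurons, 3.34% (exact binomial interval 2.71 to 4.08), against 279 of 3489 mutant cells, 8.0% (7.12 to 8.95). Among female-like cells, defined further on by Xist, the shares were 88 of 2659 (3.31%) and 157 of 1173 (13.4%). They were 41.5% of all neurons in the control library and 56.4% in the mutant library. Their median depth was 14540 UMIs and 4733 genes in the control and 12344 UMIs and 4236 genes in the mutant, and together they supplied 1591734 and 4221432 UMIs. With all cells thinned to 5000 UMIs the rule gave 3.27% and 8.20%.

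Cells near the edges of the rule were common. In the control 25 members and in the mutant 37 had exactly 3 of the 5 neuronal genes, while 56 and 86 filtered cells had 2 and were left out. Exactly 2 sensory genes were found in 26 control and 59 mutant members, and 27 control and 37 mutant sensory-type neurons had just 3. Of the members deep enough to be thinned to 5000 UMIs, 72.7% of the control and 86.6% of the mutant cells kept the same class. No member shared a cell barcode with a member of the other library.

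The libraries differed in more than genotype. Cells with Xist and no Y-linked UMI, called female-like, were 94.6% of the control members (88 of 93) and 56.3% of the mutant members (157 of 279), and 80 mutant members had Y-linked UMIs without Xist. Among all filtered cells the female-like shares were 95.5% and 33.6%, so the control pool was almost wholly female by this measure while the mutant pool was mixed. Genotype, sex of the pooled embryos and library cannot be told apart in the pooled values, and values among female-like cells are given beside some of the results.

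Some members also carried RNA of other cell types. At least 3 markers of 1 of the 8 non-neuronal lists were found in 22 of 93 control members (23.7%, 15.5 to 33.6) and in 46 of 279 mutant members (16.5%, 12.3 to 21.4). Mesenchymal markers led in the control with 15 cells, and muscle markers in the mutant with 23. Doublets were not removed, and 3 control (3.23%, 0.670 to 9.14) and 19 mutant members (6.81%, 4.15 to 10.4) were among the highest doublet scores of their library. The number of highest scores was set from the number of deposited cells in each library. Of all filtered cells, 2706 of 2783 in the control and 3368 of 3489 in the mutant were not among them.

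Pooled over all members, neuronal genes outside the rule stood above their level in non-neurons. Pcsk1n, which encodes the prohormone convertase inhibitor proSAAS and was the single supplied marker not used in the rule, was detected in 73.1% of control and 73.8% of mutant members, at 625 and 502 CPM (UMIs of a gene per 1000000 UMIs summed over the cells named). In non-neurons its level was 2.63 and 2.47 CPM. Stmn2, a microtubule regulator of growing axons, was detected in 83 of 93 and 251 of 279 members, and at 1148 and 1420 CPM, against 10.3 and 24.1 CPM in non-neurons. The 12 genes of a pan-neuronal list, none of them in the rule, summed to 5706 and 5257 CPM in members. In non-neurons they summed to 206 and 221 CPM. These are pooled values, and whether the label holds in each group given further on was not tested.

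Isl1 itself was detected in fewer than all members. It had a UMI in 46 of 93 control members (49.5%, 38.9 to 60.0) and in 90 of 279 mutant members (32.3%, 26.8 to 38.1). Thinned to 5000 UMIs these shares were 33.0% and 23.4%, against 2.05% and 5.56% in endothelial-type cells, and the sensory-type neurons had 73.2% and 83.7% at full depth. The Isl1 level in members was 163 CPM (144 to 184) in the control and 110 CPM (101 to 121) in the mutant. The reporter is not a feature of the matrices, so labelling cannot be read from the counts. Pik3ca (GRCm38, chr3:32397671-32468486, forward strand), the endogenous gene, was at 49.6 CPM in control and 50.5 CPM in mutant members. The mutant allele is a transgene at the Rosa26 locus that has no feature of its own in the matrices, so its transcripts cannot be told apart from those of the endogenous gene in these counts.

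To see how the members vary among themselves, the 372 cells were clustered without Hox, sex, proliferation and list genes compared between libraries, which gave 11 groups. Genes of the transmitter and region lists stayed in, unless they were also on a list left out. These groups and their leading genes describe the same cells that were clustered and carry no test. Groups are named by a region or class only where markers of that class led them, and otherwise by a leading gene.

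The largest group was hypothalamic-like and came from both libraries. It held 57 cells, 21 of the control and 36 of the mutant members, and was led by Six6, Nkx2-4, Magel2, Nkx2-1 and Nr5a1, transcription factors and a regulator known from the developing hypothalamus. Nkx2-1 had a UMI in 86.0% of its cells and stood at 274 CPM against 23.2 CPM in the other members. Nr5a1, the factor of the ventromedial nucleus, was found in 28.1% of its cells at 59.6 CPM against 0.609 CPM elsewhere. Pomc, the precursor of melanocortins, was concentrated here with 556 UMIs in 12 of the 57 cells. Isl1 was detected in 15 of 21 control and 18 of 36 mutant cells of the group.

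A forebrain and striatal-like group occurred in 1 library only. It held 47 mutant cells, 16.8% of the mutant members (12.6 to 21.8), and 0 of 93 control members (a floor of 3 counts allows up to 3.23%, and the exact binomial interval reaches 3.89%). Dlx5, a homeobox gene of GABAergic forebrain neurons, was detected in 91.5% of its cells at 333 CPM against 38.3 CPM in the other members, and Sp9, a zinc-finger factor, in 61.7% at 246 CPM against 31.9 CPM. Gad2, a GABA-synthesising enzyme, was found in 95.7% and Isl1 in 33 of 47 cells, 70.2%. Of its cells 43 were female-like, so among female-like members alone the group was 43 of 157 in the mutant and 0 of 88 in the control. Over all filtered mutant cells the group held 43 of 1173 female-like and 1 of 1861 male-like cells (Y-linked UMIs without Xist). The hypothalamic-like group held 31 and 5 of the same cells. Within the mutant library both groups thus lay mostly in female-like cells, and whether this follows single embryos of the pool was not tested. A group found in 1 library may be that library and not a cell type, and with 1 library per genotype library and cell type cannot be told apart.

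An autonomic-like group leaned to the control library. Of its 30 cells 21 were control members, 22.6% (14.6 to 32.4), and 9 were mutant members, 3.23% (1.49 to 6.04). Among female-like members the group was 21 of 88 in the control and 3 of 157 in the mutant (1.91%, 0.396 to 5.48). Dbh, the enzyme that makes noradrenaline, was detected in 27 of the 30 cells at 866 CPM against 3.63 CPM in the other members, with Phox2a at 714 CPM and Hand2 at 603 CPM, both factors of sympathetic development. Isl1 had a UMI in 15 of 21 control and 9 of 9 mutant cells. By cell-cycle score 13 of the 21 control cells and 0 of the 9 mutant cells were in G1, and Mki67, a proliferation marker, was at 144 CPM and 401 CPM.

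The mutant library supplied 279 of the 372 members, and in 3 further groups 28 of 32, 27 of 29 and 25 of 28 cells were from it. The first of these was 4.30% (1.18 to 10.6) of control and 10.04% (6.77 to 14.2) of mutant members. The second was 2.15% (0.262 to 7.55) and 9.68% (6.47 to 13.8), and the third 3.23% (0.670 to 9.14) and 8.96% (5.88 to 12.9). In each of them the intervals of the libraries overlap. The Neurog2 group, given further on, also had 29 of its 33 cells from the mutant library. The midbrain and hindbrain interneuron-like group (4 control and 28 mutant cells) was led by Tal1, Irx2 and Gata3, where Tal1, a helix-loop-helix factor of GABAergic interneurons, was at 168 CPM against 6.47 CPM in the other members. The Pax2 group (2 control and 27 mutant cells) had Pax2 in 93.1% of its cells at 801 CPM, with Slc6a5, the neuronal glycine transporter, in 86.2%. The Shox2 group (3 control and 25 mutant cells) was led by Shox2 and Lhx9 but these were detected in only 28.6% and 32.1% of its cells.

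Further groups were less clearly assigned. The Lingo2 group (11 control and 31 mutant cells) was led by adhesion genes such as Lingo2, Lrrc4c and Cntn5 and had the glutamate transporter Slc17a6 in 34 of 42 cells. The Neurog2 group (4 control and 29 mutant cells) expressed the proneural factors Neurog2 in 36.4% and Nhlh1 in 72.7% of cells, and Isl1 in 0 of 33. The Nhlh1 gene is also one of the 7 sensory genes of the rule, of which these cells had fewer than 3.

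Some groups named above held genes of other tissues. In the forebrain and striatal-like group 6 of 7 cardiomyocyte genes were raised, and 8 of its 47 cells carried a non-neuronal list. In the hypothalamic-like group 4 of 6 erythroid genes were raised, with 99.4% of the UMIs of Hbb-bs in 1 cell. The remaining 3 groups also showed genes of other tissues beside the neuronal ones. The collagen group (12 control and 21 mutant cells, and 11 and 5 of the female-like members) was led by Col1a1 and Col3a1, carried a non-neuronal list in 32 of 33 cells and held 12 of the highest doublet scores. The Krt8 group (5 control and 22 mutant cells) had the epithelial keratin Krt8 in 37.0% of cells at 243 CPM against 7.03 CPM in the other members. The glia and neural crest-like group (10 control and 4 mutant cells) had Sox10 in all of its 14 cells and Fabp7 at 3788 CPM. The part of these 3 groups in the library differences given further on was not tested apart from leaving them out.

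**Figure D1:**
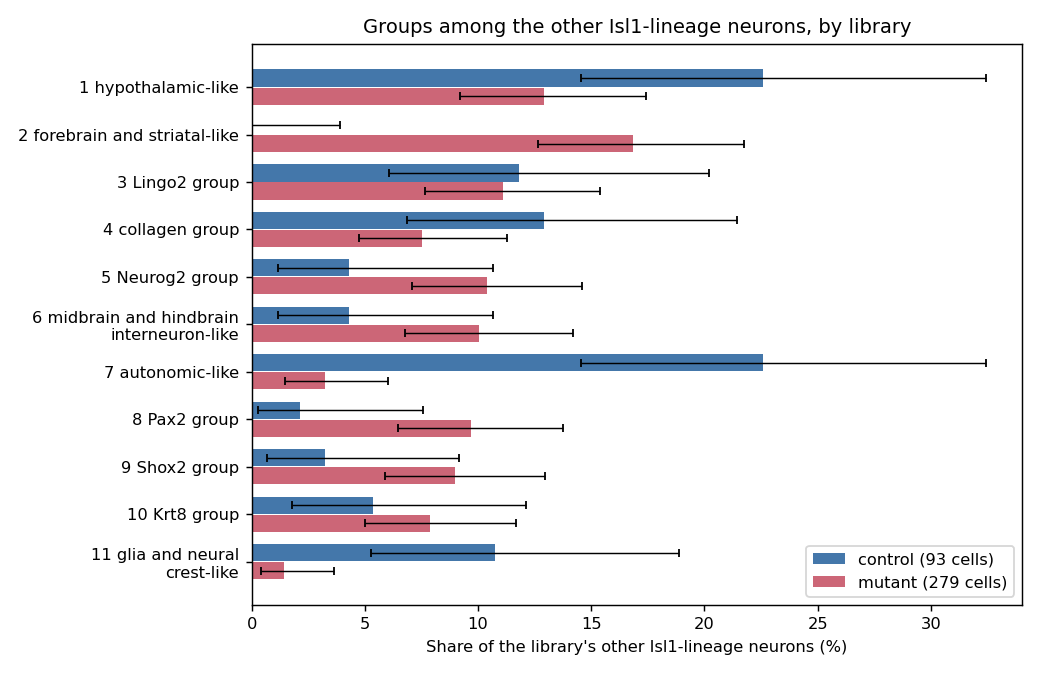
Share of each library's other Isl1-lineage neurons (percent, bars) that fell in each of the 11 groups, with exact 95% binomial intervals of counting error as lines. The forebrain and striatal-like group held 0 of 93 control and 47 of 279 mutant members, and the autonomic-like group 21 and 9.

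Transmitter identity was read from gene lists, with a cell assigned to a class when it had a UMI in at least 1 of 3 vesicular glutamate transporters, 2 of 5 GABA or glycine genes, 3 of 8 catecholamine genes or 2 of 4 acetylcholine or serotonin genes. These minimum numbers were set after values had been seen. In the control 17 of 93 members were glutamatergic (18.3%, 11.02 to 27.6) and in the mutant 93 of 279 (33.3%, 27.8 to 39.2). GABAergic or glycinergic members were 24.7% (16.4 to 34.8) and 44.1% (38.2 to 50.1). Catecholaminergic members were 22.6% (14.6 to 32.4) and 6.09% (3.59 to 9.58). Of the 30 autonomic-like cells 27 met the catecholaminergic criterion, as did 5 of the 47 forebrain and striatal-like cells and 2 of the 33 cells of the collagen group. Some of the 17 catecholaminergic mutant members thus lay outside the autonomic-like group, which held 9 mutant cells. No member met the serotonergic criterion, where a floor of 3 counts allows up to 3.23% and 1.08% and the exact binomial intervals reach 3.89% and 1.31%, and cholinergic members numbered 4 and 3. None of the 5 classes was met by 36.6% of control and 21.9% of mutant members.

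Both fast-transmitter classes stood above the level in cells that should lack them. Among endothelial-type cells, with a median of 20203 UMIs in the control and 17608 in the mutant, the glutamatergic share was 2.01% and 2.51% and the GABAergic or glycinergic share 0 of 149 and 0 of 677. With cells thinned to 5000 UMIs the members' glutamatergic shares became 11.4% and 24.9%, the GABAergic or glycinergic shares 15.9% and 36.1%, and the catecholaminergic shares 19.3% and 3.72%. The order of the libraries was the same at both depths for these 3 classes. Of the sensory-type neurons, which were deeper at medians of 23957.5 and 19324.5 UMIs, 76.8% and 75.2% were glutamatergic and 4.46% and 5.94% GABAergic or glycinergic, and thinned to 5000 UMIs these shares were 46.4% and 41.7%, and 4.46% and 2.01%.

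Some groups were nearly uniform in transmitter, and others were mixed or largely without a class. GABA or glycine genes were found in 46 of 47 cells of the forebrain and striatal-like group, 28 of 29 of the Pax2 group and 24 of 32 of the midbrain and hindbrain interneuron-like group. Glutamate transporters were found in 34 of 42 cells of the Lingo2 group and in 0 of 29 of the Pax2 group. The hypothalamic-like group was mixed, with 21 of 57 cells glutamatergic and 26 GABAergic or glycinergic. The midbrain and hindbrain interneuron-like group also had 9 glutamatergic cells. No class was met by 25 of 33 cells of the collagen group and 16 of 33 of the Neurog2 group. The same held for 16 of 27 cells of the Krt8 group and 12 of 14 of the glia and neural crest-like group. Cells that met both criteria were rare, with 1 in the control and 8 in the mutant.

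At the level of single genes, Slc17a6, the vesicular glutamate transporter VGLUT2, was at 42.7 CPM (33.2 to 54.2) in control and 83.1 CPM (74.7 to 92.3) in mutant members, and below 1 CPM in non-neurons. Gad2 was at 44.6 CPM (34.8 to 56.3) and 161 CPM (149 to 174), and Slc32a1, the vesicular transporter of GABA and glycine, at 27.6 CPM and 65.6 CPM. Gad1, the other GABA-synthesising enzyme, differed less, with 47.1 CPM and 59.2 CPM. Dbh was at 180 CPM (159 to 202) and 54.7 CPM (47.9 to 62.3). Th, the first enzyme of catecholamine synthesis, was shared by the autonomic-like group (19 of 30 cells) and the forebrain and striatal-like group (17 of 47 cells), and its levels of 104 CPM and 65.4 CPM were closer between the libraries. Chat, which makes acetylcholine, had 2 UMIs in the control and 4 in the mutant, and Mnx1, a motor neuron factor, 0 and 3.

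Neuropeptides followed the groups. Cartpt was at 489 CPM (456 to 525) in control and 122 CPM (112 to 133) in mutant members, with 24 of the 30 autonomic-like cells positive. Pomc was at 217 CPM and 62.8 CPM. Sst, somatostatin, went the other way, at 32.0 CPM (23.9 to 42.1) and 128 CPM (117 to 139), and was found in 13 cells of the Pax2 group, 9 of the midbrain and hindbrain interneuron-like group and none of the hypothalamic-like group. Npy was at 133 CPM and 146 CPM but came from different groups, since 19 autonomic-like cells held 181 of its UMIs and 14 Pax2-group cells 575.

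**Figure D2:**
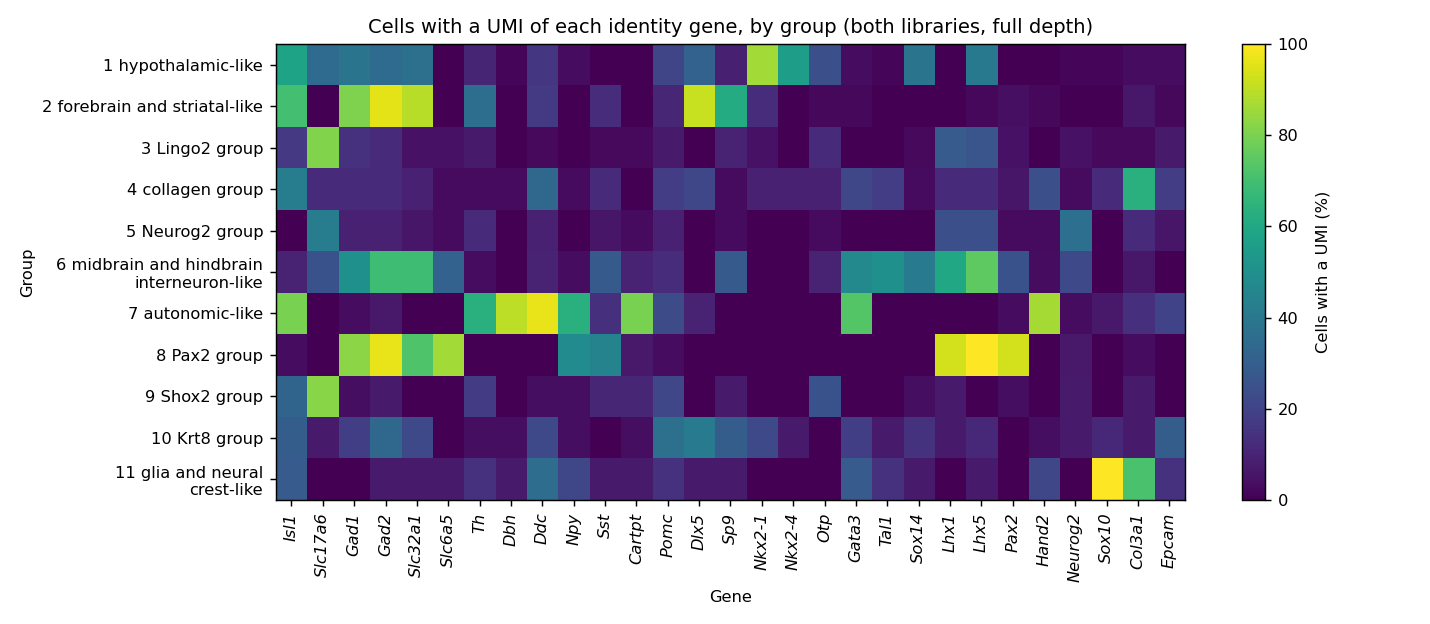
Share of cells (percent, by colour) with at least 1 UMI of each transmitter, region or other cell type gene (columns) in each of the 11 groups (rows), both libraries together at full depth. Gad2 reached 95.7% in the forebrain and striatal-like group, Slc6a5 86.2% in the Pax2 group and Sox10 every cell of the glia and neural crest-like group.

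Hox genes, which the clustering did not use, differed widely between the groups. Over the 39 Hox genes the members summed to 679 CPM (639 to 721) in the control and 1126 CPM (1094 to 1158) in the mutant, and at least 3 Hox genes were detected in 43.0% and 38.0% of cells. Sensory-type neurons had 463 and 451 CPM, and endothelial-type cells 128 and 86.1 CPM. Non-neurons as a whole had 307 and 171 CPM, with at least 3 Hox genes in 43.6% and 24.5% of cells, at deeper medians of 20581 and 17366 UMIs. The groups spanned a far wider range than the libraries. The hypothalamic-like group had 13.1 CPM in the control and 13.7 CPM in the mutant, with 1 of 57 cells holding 3 Hox genes, and the forebrain and striatal-like group 144 CPM, both regions that lie in front of the Hox domain. The Pax2 group had 5920 CPM with 29 of 29 cells positive, the Neurog2 group 3548 CPM, the Shox2 group 2732 CPM and the Lingo2 group 1827 CPM. The midbrain and hindbrain interneuron-like group was lower at 996 CPM with 11 of 32 cells positive.

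By paralogue number, Hox 1 to 4 summed to 263 CPM in control and 351 CPM in mutant members and Hox 5 to 9 to 391 CPM and 772 CPM. Hox 10 to 13, which mark the lumbar and more caudal axis, were at 25.1 CPM and 3.08 CPM, and 1 of 93 and 0 of 279 cells had 3 of them. Among the most abundant, Hoxb8 was at 103 CPM and 152 CPM. Within groups the libraries were close in some, with 13.1 and 13.7 CPM in the hypothalamic-like group, 441 and 437 CPM in the collagen group, and 6270 and 5880 CPM in the Pax2 group, although the last rests on 2 control cells. They were apart in others, with 2171 and 1711 CPM in the Lingo2 group, 4746 and 3327 CPM in the Neurog2 group, 410.2 and 599.7 CPM in the autonomic-like group and 63.9 and 230.2 CPM in the Krt8 group.

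**Figure D3:**
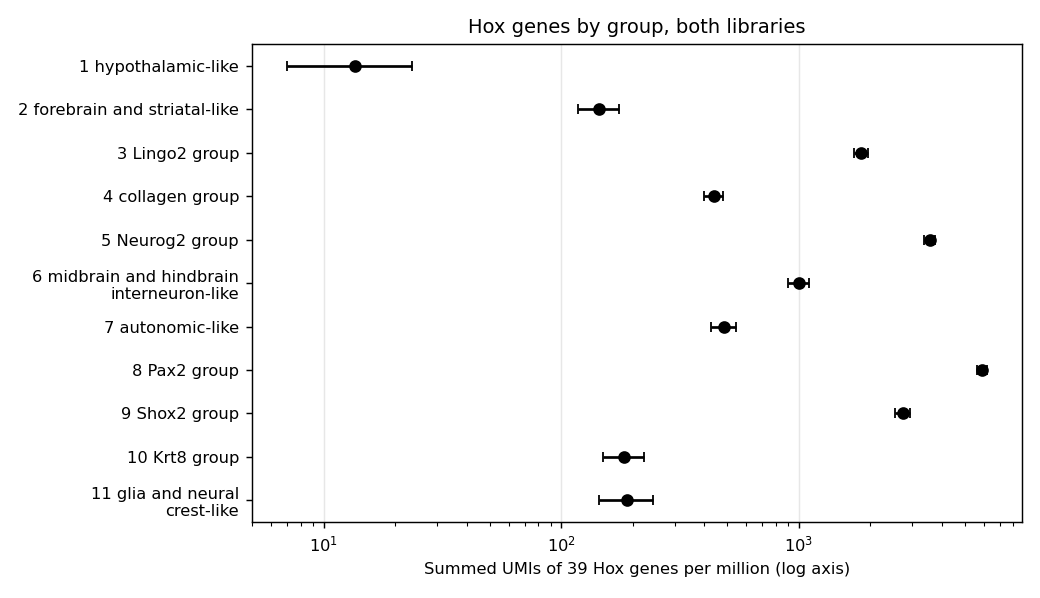
Summed UMIs of 39 Hox genes (CPM, logarithmic axis) in each of the 11 groups, both libraries together, with exact 95% Poisson intervals of counting error. The Pax2 group was highest at 5920 CPM and the hypothalamic-like group lowest, with 12 Hox UMIs in 57 cells.

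Genes with at least 50 CPM in the members of both libraries were ranked by the smaller of their ratios in the control and mutant libraries. Set beside the sensory-type neurons of the same libraries, the 12 genes with the largest ratios included homeobox, neuropeptide and smooth-muscle genes. The forebrain and striatal list as a whole was not higher in the members, with 1290 CPM in control and 1342 CPM in mutant members against 2074 and 1475 CPM in sensory-type neurons, and the autonomic list was at 1436 and 607 CPM against 672 and 569 CPM. Dlx2, a homeobox gene of GABAergic forebrain neurons, was at 66.6 CPM in control and 95.9 CPM in mutant members and at 8.10 and 12.8 CPM in sensory-type neurons. Nkx2-1 was at 52.8 and 64.9 CPM against 8.80 and 9.84 CPM. Pnoc, the precursor of nociceptin, was at 50.3 and 56.4 CPM against 11.6 and 1.34 CPM, and Ddc, aromatic amino acid decarboxylase, at 165 and 55.0 CPM against 35.9 and 14.99 CPM. Smooth-muscle genes were also among the 12 with the largest ratios, with Acta2 at 150 and 183 CPM against 35.2 and 32.9 CPM, and Tagln at 69.1 and 58.3 CPM against 11.6 and 8.05 CPM. The part of the cells with mesenchymal or muscle markers in these last values was not tested.

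Against non-neurons the genes with the largest ratios, ranked in the same way, mixed neuron-wide genes with genes of the autonomic-like group such as Dbh. Outside the rule they were led by Cartpt, with 0.275 and 0.231 CPM in non-neurons, and by Mir124-2hg, Pcsk1n, Dbh, Myt1, Ttc9b, Th, Fstl5 and Actl6b. Myt1, a zinc-finger factor of differentiating neurons, was at 84.8 and 94.8 CPM in members and 0.464 and 0.594 CPM in non-neurons. Actl6b, the neuron-specific subunit of the BAF chromatin remodelling complex, was at 59.7 and 94.8 CPM against 0.516 and 0.214 CPM.

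The libraries were then compared gene by gene over the summed members. A gene was called where it had at least 20 UMIs over both libraries and at least 50 CPM in 1, and its counting interval lay wholly beyond a 1.5-fold difference. Of 4793 genes compared, 139 were called higher in the mutant library, which is 2.90%, and 314 lower, 6.55%, and the median log2 ratio over 12848 measured genes was -0.07. These calls say that the libraries differ by more than counting error, not that the genotypes do.

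Single cells carried many of the largest rises. Of the 12 named genes with the largest rise, 11 had over 50% of their UMIs in 1 cell. Afp, alpha-fetoprotein of the fetal liver, had 0 UMIs in the control and 1503 in the mutant, of which 95.7% lay in 1 cell of the Krt8 group, and Alb followed it in the same cell. Hbb-bs, a beta-globin, had 99.4% of its 4912 UMIs in 1 cell of the hypothalamic-like group. Myl7, atrial myosin light chain, had 50.2% in 1 cell of the forebrain and striatal-like group. Over all rises, 15 of 139 had more than 50% of UMIs in 1 cell, against 2 of 314 falls.

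The exception among the largest rises was Sp9, a zinc-finger factor of striatal and interneuron precursors (chr2:73271925-73284706, forward strand). It had 0 UMIs in the control and 335 UMIs in 60 mutant cells, 79.4 CPM, at least 42.1-fold higher than a control floor of 3 UMIs, and its most heavily expressing cell held 10.1%. Of its UMIs 51.3% lay in the forebrain and striatal-like group that had no control cell.

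A limit of at most 25% of UMIs in 1 cell was set after the values were seen. Among genes within it, further large rises included Lhx1, POU factor genes, Robo3 and stress-induced chaperone genes. Lhx1, a LIM homeobox factor of interneurons, rose from 8.80 to 86.2 CPM (log2 ratio 3.29) and was detected in 4 of 93 and 70 of 279 cells. The POU factors Pou3f1 (2.88) and Pou3f2 (2.61) were detected in 9.68% of control members each, and in 43.7% and 41.6% of mutant members. Robo3, a receptor of commissural axons, rose by 2.47. The stress-induced chaperones Hspa1a (3.38) and Hspa1b (3.56) rose as well, with 51.3% and 45.5% of their UMIs in the glia and neural crest-like group.

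The largest falls lay in other groups. Sfrp5 (log2 ratio -5.31) and Col28a1 (-6.76) had 93.0% and 89.3% of their UMIs in the glia and neural crest-like group. Prph, the peripheral neurofilament peripherin, fell from 274 to 20.6 CPM (-3.73) and Phox2a from 224 to 28.4 CPM (-2.98), with 75.9% and 86.2% of UMIs in the autonomic-like group. Tbx3 (-3.31) and Cited1 (-3.13) had 67.9% and 70.7% of their UMIs in the hypothalamic-like group, which both libraries shared. Dcn and Lum, proteoglycans of connective tissue, fell by 4.78 and 4.50 on the log2 scale, with 88.0% and 91.6% of their UMIs in the collagen group and 29.6% and 37.1% in 1 cell.

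Called genes were counted by the group that held the largest number of their UMIs. The same count over all compared genes is not given, so these counts are descriptions. Cells of the collagen group were the deepest, at a median of 28374 UMIs. Of the 139 rises 43 had their most UMIs in the forebrain and striatal-like group and 34 in the collagen group, and of the 314 falls 130 had them in the collagen group, 95 in the autonomic-like group and 40 in the glia and neural crest-like group. When each of the 10 groups with cells in both libraries was given equal weight, 78 genes rose and 156 fell, of which 44 and 104 were among the calls over all members. In the sums over all members, a different mix of cells and a different level per cell cannot be told apart.

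Lists of identity genes differed between the libraries. Of 12 autonomic genes compared, 7 fell and 0 rose (among them Dbh, Ddc, Hand1, Hand2 and Phox2a), beside 2.90% of all genes called higher and 6.55% lower, with a median log2 ratio of -1.58 over 13 measured genes. Within the autonomic-like group itself the same list had a median of 0.15, with 1 rise and 0 falls, beside 2.89% of all genes called higher and 5.25% lower in that group. The clustering could use most genes of this list, and 11 of the 13 were raised in the group. Cells of either library were thus grouped partly by these genes, so the median within the group is a description and carries no test. The midbrain and hindbrain interneuron list summed to 215 CPM in control and 410 CPM in mutant members. Of its 10 genes 5 were compared, and 4 of these rose (Lhx1, Lhx5, Pax2 and Sox14). Of 11 forebrain and striatal genes compared 3 rose (Dlx1 and Sp9 among them) and 0 fell. Of 11 Hox genes compared 4 rose (Hoxb9, Hoxc5, Hoxc6 and Hoxc8), with Hoxb9 moving from 25.1 to 96.7 CPM (log2 ratio 1.94).

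Genes of glucose transport and glycolysis, the pathway that turns glucose into pyruvate and lactate, were higher in the mutant members. Of 23 measured genes 19 lay above 0, the median log2 ratio was 0.79 against -0.07 over all genes, and 10 of the 14 genes compared rose while 0 fell, beside 2.90% of all genes called higher and 6.55% lower in the members. Ldha, lactate dehydrogenase A (chr7:46841475-46855627, forward strand), rose from 320 CPM to 754 CPM (log2 ratio 1.23, 1.10 to 1.37). Slc16a3, the lactate exporter MCT4, rose from 13.2 to 67.7 CPM (2.36, 1.72 to 3.07) and Slc2a1, the glucose transporter GLUT1, from 48.4 to 118 CPM (1.29, 0.94 to 1.65). Aldoa (1.16), Pfkl (1.07), Pgk1 (1.03), Gapdh (0.88), Tpi1 (0.84), Ldhb (0.78) and Pkm (0.76) were the others, and Slc2a3, the neuronal glucose transporter GLUT3, was at 57.2 and 60.2 CPM.

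Other targets of HIF, the hypoxia-inducible factor, were also higher in the mutant members. Of 25 measured genes 22 lay above 0, the median was 0.62, and 7 of the 13 compared rose while 0 fell, beside the same 2.90% and 6.55% over all genes. They were Bnip3 (1.42), a mitophagy receptor, Vegfa (1.23), the endothelial growth factor, Higd1a (1.10), Ero1l (1.07), Ddit4 (1.04), an inhibitor of mTORC1, Fam162a (0.92) and Cited2 (0.91). Vegfa was at 33.9 CPM and 79.4 CPM. In the same libraries the median of this list was 1.49 in sensory-type neurons and 1.72 in non-neurons, and that of glycolysis 1.10 and 1.22, and the difference from the members was not tested.

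The HIF result depended on which members were counted. Without the cells that carried a non-neuronal list the HIF median was 0.23, with 3 rises (Cited2, Ddit4 and Vegfa) and 1 fall (Egln3), beside 2.30% of all genes called higher and 6.25% lower in those cells. Among female-like members alone it was 0.14, with 2 rises (Cited2 and Vegfa), beside 3.48% called higher and 7.40% lower. Glycolysis kept medians of 0.70 and 0.55 in the same cells, with 6 rises, and then 3 rises (Gapdh, Ldhb and Slc16a3) and 1 fall (Slc2a3). Slc2a1 was at 53.4 and 54.0 CPM without the cells carrying a non-neuronal list, and at 49.2 and 63.6 CPM in female-like members. In the collagen group, where 32 of 33 cells carried a non-neuronal list, 14 of 16 glycolysis genes and 6 of 16 HIF targets rose, beside 3.89% of all genes called higher and 7.47% lower, with Slc2a1 at 39.2 and 356 CPM.

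The hypothalamic-like group allowed the comparison within 1 group, with 52 of its 57 cells female-like. When the members were clustered again without cells carrying a non-neuronal list, 27 of its remaining 53 cells stayed in 1 group. There 9 of 15 glycolysis genes compared rose and 0 fell, with a median of 1.15, beside 2.78% of all genes called higher and 3.54% lower in that group. Ldha rose from 68.7 to 519 CPM (log2 ratio 2.92, 2.28 to 3.63), Tpi1 from 167 to 531 CPM, Eno1 from 75.2 to 228 CPM and Gapdh from 821 to 1672 CPM. Slc16a3 had 0 UMIs in the control and 47 in the mutant. Of 10 HIF targets compared only Vegfa rose, from 19.6 to 72.0 CPM, and the median was 0.41. Among the female-like cells of the group these medians were 1.11 and 0.32.

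The group was not of the same make-up in both libraries. Slc17a6 was detected in 1 of 21 control and 19 of 36 mutant cells, Sox14, a factor of interneurons, in 3 and 19, and Gad1 in 14 and 8. Pomc was at 1086 and 384 CPM, although found in 6 cells of each. Nkx2-1, a leading gene of the group that the clustering could use, was similar, in 20 and 29 cells at 255 and 284 CPM. Whether the glycolysis genes moved with these subtypes was not tested.

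**Figure D4:**
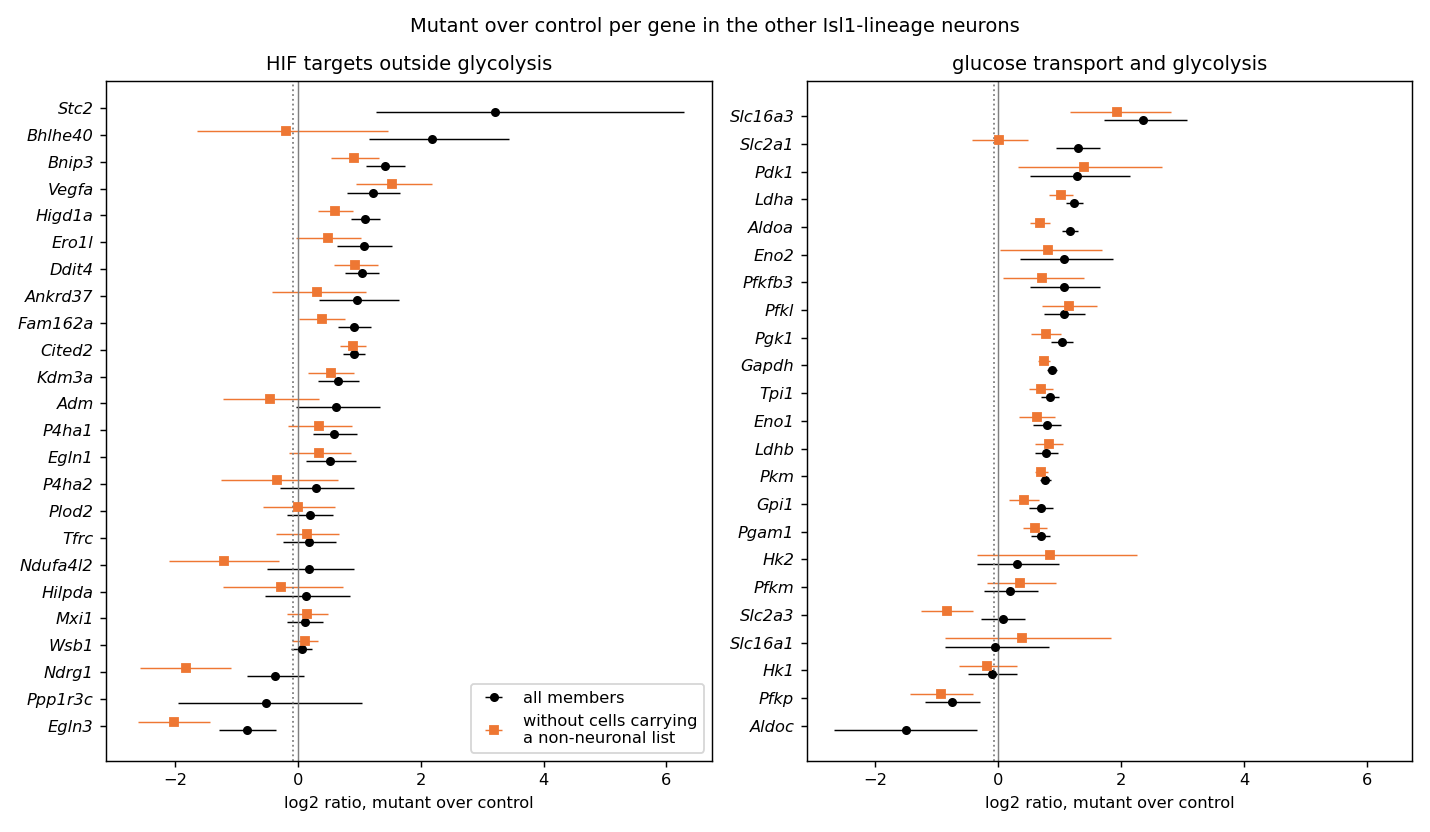
Log2 ratio of mutant over control (horizontal axis) for each HIF target (left) and glycolysis gene (right) in all members (black circles) and in members without cells carrying a non-neuronal list (orange squares, where measured), with 95% intervals of counting error. The solid line is 0 and the dotted line the median of all genes, -0.07. Slc2a1 moved from 1.29 to 0.02 without those cells, while Slc16a3 stood at 2.36 and 1.94, and Car9, with no control UMI, is not drawn.

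Genes of axons and synapses showed no common direction. Among axon growth and cytoskeleton genes Tubb2b (1.03) and Tuba1a (0.71), tubulins of growing neurons, rose, while Gap43 (-0.71), Nefl (-0.86), Nefm (-0.87) and Prph fell. Within single groups the neurofilaments went the other way, since in the hypothalamic-like group Nefl rose from 39.2 to 123 CPM and Nefm from 55.6 to 144 CPM, and in the autonomic-like group Nefl rose from 1709 to 2904 CPM and Nefm from 2798 to 4793 CPM. The control members held 21 of the 30 autonomic-like cells, where these genes were at their highest.

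In the hypothalamic-like group 7 of 15 axon growth and cytoskeleton genes rose and 0 fell, beside 2.78% of all genes called higher and 3.54% lower in that group. They included Stmn2, from 968 to 2465 CPM, Gap43, from 461 to 908 CPM, and Tubb2b, from 1714 to 4461 CPM. In the autonomic-like group, where 13 of 21 control and 0 of 9 mutant cells were in G1, 2 rose and 3 fell, beside 2.89% called higher and 5.25% lower, and Gap43 stood at 2421 and 1704 CPM. The axon list thus differed in median between these groups, at 0.86 and -0.51.

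Of 13 synapse and secretory vesicle genes compared, only the granins Chga (-0.94) and Chgb (-1.72) were called, both lower. In the autonomic-like group Chgb fell from 665 to 54.1 CPM and Chga from 552 to 271 CPM. Guidance and adhesion genes had 1 rise, Robo1 (1.16), and 6 falls among 20 compared, beside 2.90% of all genes called higher and 6.55% lower in the members. The falls were Epha7, Nrp1, Plxna4, Slit2, Slit3 and Unc5c. In the autonomic-like group 9 of 14 fell and 0 rose, beside 2.89% of all genes called higher and 5.25% lower in that group, among them Ncam1, the neural cell adhesion molecule, from 1211 to 469 CPM. Among the receptors for neurotrophins and glial-derived factors, Ret and Gfra3 fell, 2 of 6 compared, and among ion channels Scn3b fell, 1 of 10 compared. None of either list rose.

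Lists of stress and signalling gave few calls. No gene of the ATF4 and amino acid stress list (4 compared) or of the PI3K, FOXO and mTORC1 list (8 compared) was called, and their medians were 0.32 and -0.02. Of 11 immediate early and heat shock genes compared, Hspa1a and Hspa1b rose. Over all genes 2.90% were called higher and 6.55% lower. Counting error alone decides these calls, and with the pooled design a list without calls is not shown to be unchanged.

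**Figure D5:**
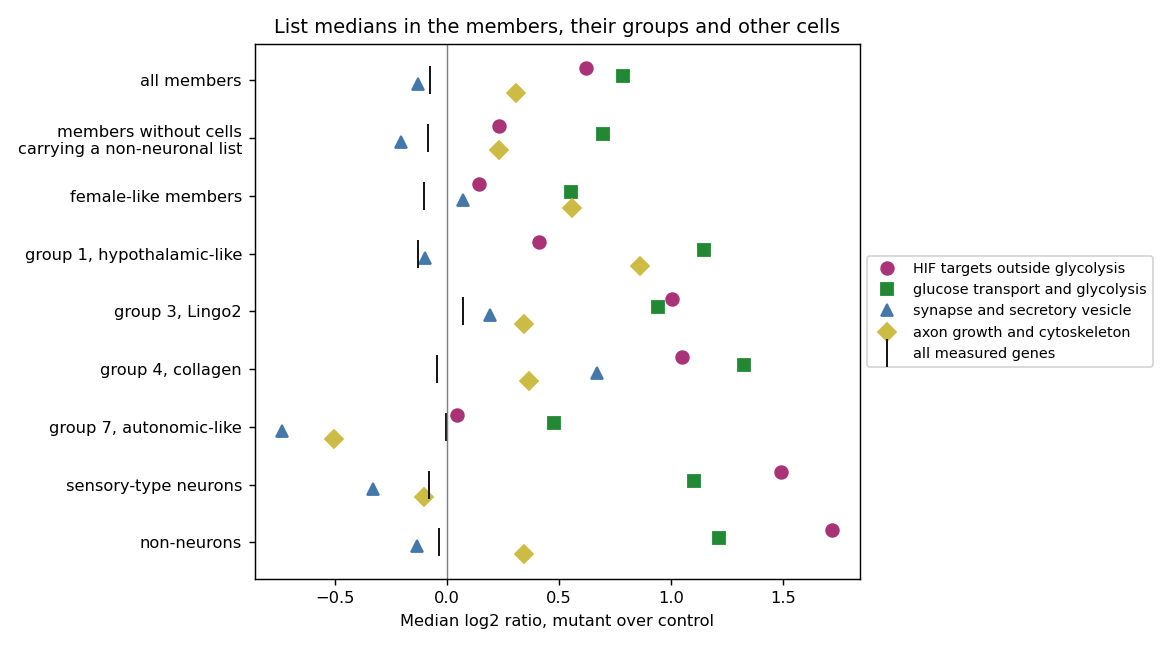
Median log2 ratio of mutant over control (horizontal axis) for 4 gene lists (coloured symbols) and all measured genes (black ticks) in the members, subsets and groups of them, sensory-type neurons and non-neurons. In all members, members without a non-neuronal list, female-like members and the hypothalamic-like group the glycolysis medians were 0.79, 0.70, 0.55 and 1.15 and the HIF medians 0.62, 0.23, 0.14 and 0.41.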

How the data were processed

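The authors aligned the 5′ droplet libraries to the mouse genome (GRCm38/mm10) with Cell Ranger 7.1.0, and the deposited matrices hold UMI counts per gene and cell. Whether intronic reads were counted is not given in the sources used here. Cells were kept with over 2000 and under 9000 genes and under 10% mitochondrial UMIs, the filter of the study. The members and lists were chosen with earlier results of these data known. UMIs were summed per library over the cells compared and scaled to CPM (per 1000000 UMIs). Intervals (95%) are exact Poisson for levels, exact binomial (Clopper-Pearson) for shares and conditional binomial for ratios, and cover counting error only. Ratios were called at 20 UMIs, 50 CPM and 1.5-fold. A gene with 0 UMIs in 1 library was compared with a floor of 3 counts. The sources name 1 library of 3 pooled embryos per genotype, so no test was possible. The method was tested on simulated data.

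Groups came from Leiden clustering (2000 variable genes, 15 components, 12 neighbours, resolution 1.0) in scanpy 1.11.5 with igraph 0.11.9. Female-like cells had Xist and no Y-linked UMI. Endothelial-type cells were non-neurons with at least 5 of 7 endothelial markers. Doublets were scored with Scrublet and not removed. Named genes were the 12 largest rises and falls among called genes (genes without a symbol, sex genes and mitochondrial genes counted only, 3 rises and 10 falls), the list and Hox genes, Pik3ca, and the 12 genes with the largest ratios of members over sensory-type neurons and non-neurons. Gene positions are from GENCODE vM21 (GRCm38). The 19 alternatives covered scaling (edgeR 4.0.16 TMM in R 4.3.3, median ratio), depth, cell filters, doublets, sex, cell cycle and groups. Python 3.11.15 with numpy 2.4.6, scipy 1.17.1 and pandas 2.3.3 was used. Some genes that the rule names are not reported here.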

Additional observations from a re-analysis of the deposited data

Results flagged for a closer look

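Some cells outside the filter met the gene rule, a signal in data that the comparisons did not use. These cells were shallow, with medians of 1234 genes in the control and 1426 in the mutant. Whether they are neurons of the same kind was not tested. Of 1722 control cells outside the filter 14 met the gene rule (0.813%, exact interval 0.445 to 1.36), and of 1868 mutant cells 44 did (2.36%, 1.72 to 3.15). All but 1 cell in each library had 2000 genes or fewer, with a median of 1934 UMIs in the control and 2516 in the mutant. Isl1 had a UMI in 5 cells of each library, Gad2 in 1 and 10, Slc17a6 in 3 and 5, and Dbh in 1 and 0.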

How the results depend on the processing

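With 1 library per genotype, leaving out a replicate was not possible. No paired analysis was possible because each genotype has 1 library. Of the values recomputed under the alternatives, 114 had the same sign and stayed within set limits, 26 moved further and 3 reversed. The limits were 1.5 times for counts and the counting interval of the reported value for shares. For list medians they were the medians of the lower and upper counting bounds of the single genes, which is not an interval of the median itself. Some of the 114 could not move, since leaving out the CPM minimum changes the calls and not the list medians. The alternatives that leave out single-cell genes, groups or female-like cells without non-neuronal markers, or keep group 1 (the hypothalamic-like group) only, were chosen after seeing the data.

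The 139 rises and 314 falls became 78 and 156 with equal weight to each group, 368 and 733 with no CPM minimum, and 90 and 194 without groups 4, 7, 10 and 11 (collagen, autonomic-like, Krt8, and glia and neural crest-like), and the hypothalamic-like group alone gave 168 falls. TMM scaling shifted all ratios by 0.11 and gave 183 rises and 274 falls. The HIF median of 0.62, below the glycolysis median of 0.79, was 0.73 with equal weight to each group, as was the glycolysis median. It became 0.14 in female-like members, 0.23 without cells carrying a non-neuronal list and 0.0771 with both limits, and the glycolysis median became 1.15 in the hypothalamic-like group alone. The synapse median of -0.13 reversed to 0.0711 in female-like members and to 0.0503 without genes carried by 1 cell. The axon median of 0.31 reversed to -0.0763 with equal weight to each group, and was 0.12 as a mean over cells, 0.11 with at least 4 neuronal genes, 0.56 in female-like members, 0.16 without groups 4, 10 and 11, and 0.86 in the hypothalamic-like group. The causes were not tested.

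The share of members in the control was 2.55% without cells carrying a non-neuronal list and 2.44% with at least 4 neuronal genes, and in the mutant 6.68% and 6.94%, and 13.4% among female-like cells. Thinning to 5000 UMIs gave GABAergic or glycinergic shares of 15.9% and 36.1%, a mutant glutamatergic share of 24.9%, and 52.3% and 37.9% with no class. Other resolutions gave 9 and 12 groups in place of 11. At the lower resolution the midbrain and hindbrain interneuron-like and Shox2 groups fell into 1 group of 60 cells. The collagen and the glia and neural crest-like groups fell into 1 group of 47 cells. Clustered without cells carrying a non-neuronal list, the members gave 11 groups. Of 53 hypothalamic-like cells 27 then stayed in 1 group, which held 7 control and 22 mutant cells.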

Other observations

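By expression score 78.5% of control and 82.8% of mutant members were in G1, against 41.9% and 42.1% of non-neurons. Mki67, a proliferation marker, was detected in 32.3% of control and 20.8% of mutant members, with 112 of its 186 control UMIs and 195 of its 437 mutant UMIs in the collagen group, and 3 and 11 UMIs in the hypothalamic-like group. The neural progenitor list summed to 432 CPM in control and 589 CPM in mutant members. It was at 509 and 892 CPM in sensory-type neurons and at 412 and 335 CPM in non-neurons. Dll3, a Notch ligand of newly formed neurons, was detected in 13 of 93 control and 106 of 279 mutant members and rose from 10.7 to 50.7 CPM (log2 ratio 2.25, counting interval 1.53 to 3.05), while Insm1, a zinc-finger factor of neurogenesis, was at 89.2 and 125 CPM and Hes6 at 161 and 122 CPM.

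Lists of other sensory organs and glands gave mixed levels. The retinal list summed to 317 CPM in control and 109 CPM in mutant members against 105 and 170 CPM in non-neurons, with Sncg, a synuclein also found in sensory-type neurons, at 217 CPM in the control members. The olfactory list summed to 276 and 272 CPM against 141 and 117 CPM in non-neurons, with Omp at 0 in the members of both libraries. The retinal ganglion cell factor Pou4f2 was found in 4 control and 11 mutant members, and Atoh7 in 2 and 4. Of the pituitary list Pomc was the most abundant gene in control members, at 217 CPM, and the hormone subunit Cga in mutant members, at 63.5 CPM. Cga had 268 of its 269 UMIs in 1 cell of the Krt8 group. Pmch, the precursor of melanin-concentrating hormone of the lateral hypothalamus, had 239 UMIs in 2 mutant cells of the hypothalamic-like group.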
